A study of Mus musculus with 19 samples.

Results

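The 9 genes described here encode complement components and complement receptors: the 3 chains of C1q (C1qa, C1qb and C1qc), the components C2, C3 and C4b, factor B (Cfb), and the receptors C3ar1 and C5ar1. They were taken by symbol from a table of 24237 genes measured by RNA sequencing in epididymal white adipose tissue (eWAT), the visceral fat pad beside the epididymis. Each of the 9 symbols was found once. Male C57Bl6/J wild-type mice, aged 9 to 10 weeks at the start, received 1 of 4 diets for 17 weeks, with 10% (low-fat diet, LFD) or 60% (high-fat diet, HFD) of the energy from palm oil and with 0.21% (NormMg) or 0.03% (LowMg) magnesium oxide by weight. The NormMg-LFD group had 4 mice, and the LowMg-LFD, NormMg-HFD and LowMg-HFD groups had 5 mice each, with 1 library per mouse.

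Complement is a cascade of plasma proteins that marks particles and cells for uptake and draws in leucocytes. C1q starts the classical pathway and acts through C4 and C2, factor B and factor D drive the alternative pathway, and the routes meet at C3. Small fragments cut from C3 and C5 act on the receptors C3ar1 and C5ar1. The chains of C1q are made mainly by macrophages, whereas adipocytes are a known source of factor D (adipsin, gene Cfd), and the adipose tissue of obese animals holds many macrophages.

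Expression is given in FPKM, a read number scaled to transcript length and library size, which allows levels to be compared between genes. Differences are on the log2(FPKM + 1) scale with their SE. Adjusted p values are from limma, a linear model fitted over the 8336 genes that exceeded 8 FPKM both as the mean of at least 1 diet group and in 4 or more of its mice. A gene was called at an adjusted p under 0.05. All 9 genes passed this filter, but C3ar1 passed it only through its levels in NormMg-HFD, and C5ar1 through the HFD groups. Bulk RNA cannot tell fewer cells of a type from less RNA per cell.

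The libraries held 12986441 to 13027028 reads, of which 86.12% to 90.41% mapped. The 9 adipocyte markers had a mean log2(FPKM + 1) between 8.67 and 9.66 in every mouse, so that markers of the labelled tissue were present throughout. A pair of LFD libraries stood apart. The summed FPKM of 10 exocrine pancreas markers was 1606 in NormMg-LFD replicate 3 and 12.3 to 52.6 in the other mice, and that of 7 epididymis markers was 131 in LowMg-LFD replicate 4 and at most 3.84 elsewhere. The study's methods describe pancreatic tissue in a LowMg-HFD mouse. In the deposited table the pancreas markers summed to 20.6 to 44.6 FPKM in the libraries labelled LowMg-HFD, so that the library with these markers carries another group's label than that description. Results that use these mice were also computed without each of them. Relative to all genes, the choice of scaling moved the balance of directions: on HFD, 465 genes were higher and 1077 lower in LowMg than in NormMg mice, against 649 and 849 when each sample was centred on its median and 786 and 878 after quantile normalisation. For NormMg-HFD against NormMg-LFD these splits were 2048 higher and 1066 lower, 1580 and 1572, and 1499 and 1696, and for LowMg-HFD against LowMg-LFD they were 1036 and 293, 593 and 531, and 549 and 530. Centring moved the median difference of all genes by up to 0.11 on the log2 scale.

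The promoters of C1qb, C1qc, C3ar1 and C5ar1 are printed here because these genes moved together in the HFD groups. The RefSeq table (GRCm38.p6) held windows of 300 bases for 5 of the 9 genes, and C1qa, C2, C4b and Cfb were not found in it. The 250 bases before the RefSeq start are given 5′ to 3′ on the minus strand, which carries all 9 genes, with matches to any of 4 motifs in capitals. C1qb is from chr4:136886201-136886450, C1qc from chr4:136892915-136893164, C3ar1 from chr6:122856158-122856407 and C5ar1 from chr7:16259339-16259588. GENCODE places the start of C1qc and C5ar1 further upstream, so that 151 and 202 of the printed bases lie inside the GENCODE span of these genes, as do 4 of C3ar1.
C1qb: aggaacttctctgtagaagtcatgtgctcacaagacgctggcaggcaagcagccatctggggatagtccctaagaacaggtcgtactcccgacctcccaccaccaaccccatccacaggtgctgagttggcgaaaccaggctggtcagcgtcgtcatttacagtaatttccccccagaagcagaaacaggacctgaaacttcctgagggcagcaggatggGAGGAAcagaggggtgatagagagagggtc
C1qc: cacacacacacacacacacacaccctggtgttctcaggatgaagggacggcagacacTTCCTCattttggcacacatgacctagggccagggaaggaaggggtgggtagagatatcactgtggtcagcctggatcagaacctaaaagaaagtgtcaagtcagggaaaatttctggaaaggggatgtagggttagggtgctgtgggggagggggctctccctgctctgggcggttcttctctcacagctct
C3ar1: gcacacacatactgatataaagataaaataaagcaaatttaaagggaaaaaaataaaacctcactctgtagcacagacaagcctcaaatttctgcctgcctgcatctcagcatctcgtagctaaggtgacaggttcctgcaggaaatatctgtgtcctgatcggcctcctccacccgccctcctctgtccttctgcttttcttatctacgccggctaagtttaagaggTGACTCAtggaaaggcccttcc
C5ar1: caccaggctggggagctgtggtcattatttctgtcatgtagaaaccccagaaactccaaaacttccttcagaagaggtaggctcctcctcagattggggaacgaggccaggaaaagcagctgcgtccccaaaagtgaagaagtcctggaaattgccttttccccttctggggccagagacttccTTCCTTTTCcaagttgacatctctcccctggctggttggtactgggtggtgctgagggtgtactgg

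Both strands were searched for the PU.1 core GAGGAA (PU.1 is a factor of the myeloid lineage), the AP-1 motif TGANTCA, the GAS motif TTCNNNGAA and the IRF pair GAAANNGAA. The PU.1 core occurred once in the C1qb window, starting 30 bases before the start, and once in the C1qc window, starting 193 bases before it. These letters are common, being found in 28.3% of the 32851 promoter windows of the same length. The C3ar1 window held 1 AP-1 match, 22 bases before the start, against 7.81% of all windows. The C5ar1 window held 1 IRF pair, 66 bases before the RefSeq start and inside the GENCODE span of the gene, against 8.56% of all windows. The GAS motif, found in 8.3% of all windows, was in none of the windows of these genes, and the C3 window held none of the 4 motifs. The searched motifs were thus not shared by all 4 printed windows, and a match is a description of letters only.

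C1q was abundant in eWAT and was highest in NormMg-HFD mice. C1qa (chr4:136895917-136898803, GRCm38), C1qb (chr4:136880129-136886187) and C1qc (chr4:136889804-136893065) lie next to each other. In NormMg-LFD mice their mean levels were 122 ± 3.22, 103 ± 6.06 and 88.4 ± 2.77 FPKM (SD, n = 4), and in NormMg-HFD mice they were 320 ± 58.4, 431 ± 100 and 278 ± 63 FPKM (SD, n = 5). With these levels C1qb ranked number 140 of all genes in NormMg-HFD mice and number 696 in NormMg-LFD mice.

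The values of C1qb in single mice show the pattern. It was at 102, 94.6, 109 and 104 FPKM in NormMg-LFD mice, and at 79.6, 142, 103, 169 and 116 FPKM in LowMg-LFD mice. It was at 463, 413, 572, 412 and 295 FPKM in NormMg-HFD mice. It was at 286, 260.13, 179, 119 and 163 FPKM in LowMg-HFD mice. Every NormMg-HFD mouse was thus above every mouse of the other 3 groups, and the LFD groups overlapped. LowMg-HFD mice lay between, with replicates 4 and 5 inside the range of LowMg-LFD mice.

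Low dietary Mg2+ on HFD was accompanied by lower levels of each C1q chain. In LowMg-HFD against NormMg-HFD mice the difference on the log2 scale was -0.89 ± 0.18 for C1qa (adjusted p = 0.00311), -1.13 ± 0.22 for C1qb (adjusted p = 0.00299) and -1.13 ± 0.22 for C1qc (adjusted p = 0.00269). The ratios of the mean FPKM were 0.542, 0.468 and 0.466. For each chain, all 5 LowMg-HFD mice were below all 5 NormMg-HFD mice. The 9 genes included 5 that were called lower in this comparison, against 12.9% of all genes tested, and 1 that was called higher, C2, against 5.58%. Values that did not overlap and were lower were found in 9.56% of all genes tested, and values that did not overlap and were higher in 3.2%. C3ar1, 1 of the 5 called lower, passed the filter only through NormMg-HFD. The 9 genes and the lists used below were chosen with earlier results of these data known, so that counts of calls among them are descriptions only.

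**Figure D1:**
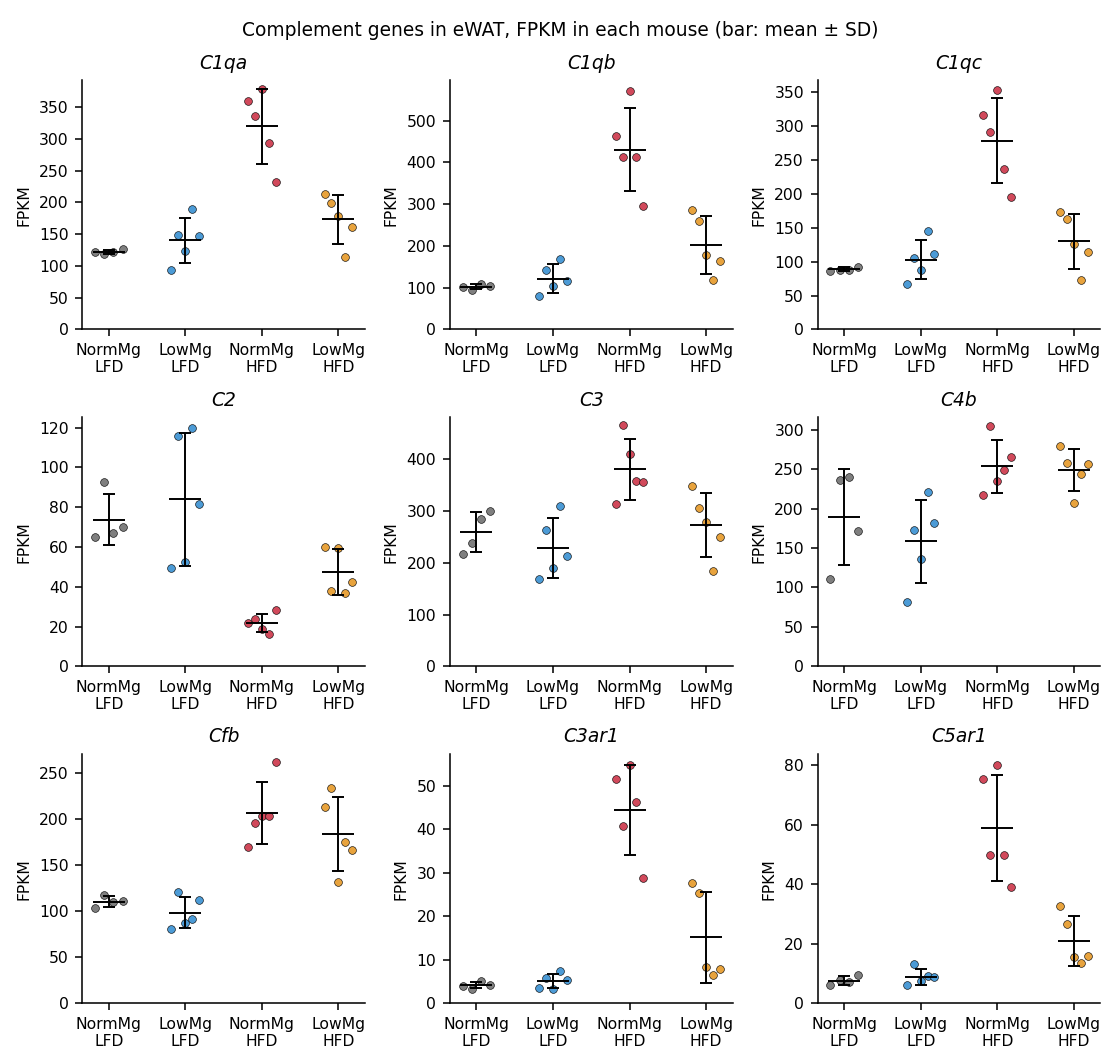
FPKM of the 9 complement genes in each mouse (1 point a mouse, in the order of the replicate numbers), with the mean and SD of each diet group as bars. For the C1q chains, C3ar1 and C5ar1 the 5 NormMg-HFD mice lie above all other mice, for C2 they lie below all other mice, and for C4b and Cfb the HFD groups overlap.

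The receptors of the complement fragments showed the largest differences of the 9 genes. C3ar1 (chr6:122847138-122856161) was at 3.91, 3.38, 5.15 and 4.28 FPKM in NormMg-LFD mice and at 3.6, 5.92, 3.26, 7.34 and 5.44 FPKM in LowMg-LFD mice. In NormMg-HFD mice it was at 51.6, 40.7, 54.6, 46.2 and 28.7 FPKM. In LowMg-HFD mice it was at 27.7, 25.4, 8.23, 6.44 and 7.85 FPKM. The NormMg-HFD and LowMg-HFD groups did not overlap, although replicates 1 and 2 of LowMg-HFD were close to the lowest NormMg-HFD mouse and replicates 3 to 5 were near the LFD mice. C3ar1 fell by 1.71 ± 0.33 on the log2 scale in LowMg-HFD against NormMg-HFD mice (adjusted p = 0.00267).

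C5ar1 (chr7:16246743-16259540) was at 6.08, 7.79, 7.14 and 9.55 FPKM in NormMg-LFD mice and at 6.1, 13.1, 7.37, 9.17 and 8.79 FPKM in LowMg-LFD mice. It was at 75.4, 49.9, 80.01, 49.9 and 39.03 FPKM in NormMg-HFD mice, and at 32.8, 26.6, 15.6, 13.5 and 15.9 FPKM in LowMg-HFD mice. The lowest LowMg-HFD mouse was above the highest LFD mouse, and the highest LowMg-HFD mouse was below the lowest NormMg-HFD mouse. C5ar1 fell by 1.48 ± 0.24 on the log2 scale in LowMg-HFD against NormMg-HFD mice (adjusted p = 0.00178). The ratio of C3ar1 to C5ar1 FPKM was 0.769 ± 0.104 in NormMg-HFD and 0.66 ± 0.224 in LowMg-HFD mice (SD, n = 5), with overlapping ranges. The other known receptor for the C5 fragment, C5ar2, did not pass the filter, with mean FPKM between 0.826 and 4.66 in the 4 groups.

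C2, the protease component that C1 cleaves, went the opposite way. It (chr17:34862604-34898265) was at 65.2, 92.8, 67.2 and 69.98 FPKM in NormMg-LFD mice and at 49.5, 116, 52.4, 120.08 and 81.6 FPKM in LowMg-LFD mice. It was at 21.6, 24.02, 18.6, 16.5 and 28.1 FPKM in NormMg-HFD mice and at 60.08, 37.9, 59.6, 36.8 and 42.4 FPKM in LowMg-HFD mice. The NormMg-HFD mice were the lowest of all, and all 5 LowMg-HFD mice were above them. C2 was higher by 1.08 ± 0.23 on the log2 scale in LowMg-HFD compared with NormMg-HFD mice (adjusted p = 0.00427), a ratio of mean FPKM of 2.18.

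Cfb, the alternative pathway counterpart of C2, lies beside it (chr17:34856374-34862518) and did not follow it. Cfb was at 169, 196, 203, 203 and 262 FPKM in NormMg-HFD mice and at 214, 234, 132, 176 and 167 FPKM in LowMg-HFD mice, with overlapping ranges. The difference, LowMg-HFD minus NormMg-HFD, was -0.18 ± 0.14 on the log2 scale with a 95% confidence interval from -0.48 to 0.12 (adjusted p = 0.415). The ratio of C2 to Cfb FPKM was 0.666 ± 0.0844 in NormMg-LFD (SD, n = 4), 0.106 ± 0.02 in NormMg-HFD and 0.272 ± 0.11 in LowMg-HFD mice (SD, n = 5), and these 3 groups did not overlap. The annotation places the gene Gm20547 over both C2 and Cfb on the same strand, and Zbtb12 over C2 on the opposite strand. Their mean FPKM was 4.96 to 11.4 and 2.74 to 4.07 in the 4 groups. Whether the counting used strand was not given in the sources used here, so that reads of these genes cannot be told apart with certainty.

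C3 and C4b, the components that are deposited on surfaces, were abundant in every group and differed less with dietary Mg2+. C3 (chr17:57203970-57228136) was at 313, 466, 409, 358 and 356 FPKM in NormMg-HFD mice and at 348, 305, 278, 184 and 249 FPKM in LowMg-HFD mice. Of the LowMg-HFD mice 4 were below every NormMg-HFD mouse, and replicate 1 was not. The difference was -0.5 ± 0.17 on the log2 scale (adjusted p = 0.0533), which missed the threshold in limma but passed it without LowMg-HFD replicate 1 or 2 or without LowMg-LFD replicate 1 or 4, the lowest adjusted p among the alternatives being 0.026.

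C4b (chr17:34728380-34743882) was at 217, 305, 234, 248 and 265 FPKM in NormMg-HFD mice and at 279, 258, 207, 244 and 256 FPKM in LowMg-HFD mice. The difference was -0.03 ± 0.22 on the log2 scale with a 95% confidence interval from -0.49 to 0.44 (adjusted p = 0.948). The means were 254 ± 33.5 and 249 ± 26.6 FPKM (SD, n = 5). C4b has a near-identical neighbour gene, C4a, which was not analysed here, and reads of the 2 genes may have been split between them, so that its level is uncertain.

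**Figure D2:**
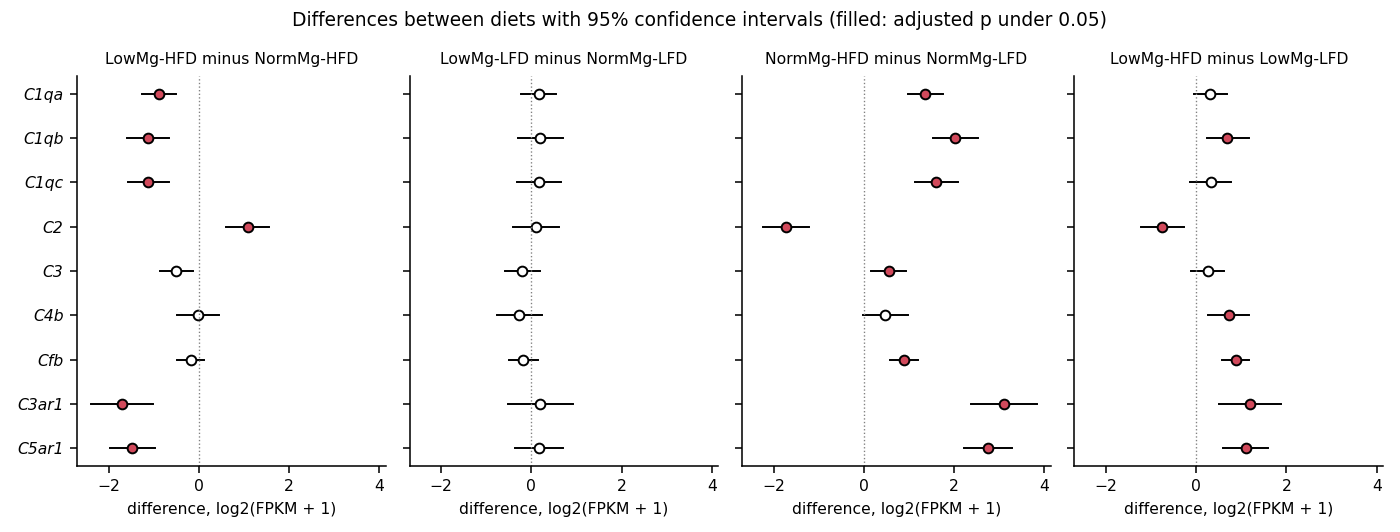
Differences on the log2(FPKM + 1) scale for the 9 genes in 4 comparisons, with 95% confidence intervals. Filled points have an adjusted p under 0.05 in limma, which holds for 6 genes in the first panel, 0 in the second, 8 in the third and 6 in the fourth.

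On LFD, low Mg2+ was not accompanied by a called difference in any of the 9 genes by limma, with 0 of them at an unadjusted p under 0.05. Of all genes tested 0% were called, and 547 had an unadjusted p under 0.05. The differences ran from -0.27 for C4b to 0.2 for C1qb and C3ar1 on the log2 scale. The confidence interval of C1qb was -0.29 to 0.7, and that of C3ar1 was -0.52 to 0.93, so that changes of the size seen on HFD lay outside them. For 8 of the 9 genes the SD was larger in LowMg-LFD than in NormMg-LFD mice, as for C1qc (29 against 2.77 FPKM), while that of C4b was smaller (52.4 against 60.9 FPKM). C2 was at 49.5 and 52.4 FPKM in replicates 1 and 3 and at 81.6 to 120.08 FPKM in the others. The mouse with the highest C1q levels of this group was replicate 4, whose library held the epididymis markers. Without it, 0 of the 9 genes were called.

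The effect of fat was also measured at each Mg2+ level. In NormMg mice, 7 of the 9 genes were called higher on HFD, against 24.6% of all genes tested, and C2 was called lower, against 12.8%. C3ar1 rose by 3.11 ± 0.35 (adjusted p = 2.23e-06) and C5ar1 by 2.76 ± 0.26 (adjusted p = 1.36e-06) on the log2 scale, ratios of mean FPKM of 10.6 and 7.7. C1qa rose by 1.36 ± 0.19, C1qb by 2.03 ± 0.24 and C1qc by 1.61 ± 0.23, with adjusted p values of 1.52e-05, 2.94e-06 and 2.13e-05. Cfb rose by 0.89 ± 0.15 (adjusted p = 0.000147) from a mean of 110 to 207 FPKM. C2 fell by 1.72 ± 0.24 (adjusted p = 1.98e-05). In all 7 genes that rose, the 5 NormMg-HFD mice were above the 4 NormMg-LFD mice, which 21.5% of all genes tested also showed.

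C3 was the least certain of these genes. It was at 217, 237, 284 and 299 FPKM in NormMg-LFD mice, just below the lowest NormMg-HFD mouse, and rose by 0.55 ± 0.18 on the log2 scale (adjusted p = 0.0243). The call was lost without NormMg-LFD replicate 2 or 3, without NormMg-HFD replicate 2 or 3, without a filter (adjusted p = 0.0628) and after quantile normalisation, when the difference was 0.34 (adjusted p = 0.149). Without NormMg-LFD replicate 3, the library with pancreas markers, the difference was 0.51 (adjusted p = 0.0664), about as large as with it, and the other 7 calls held. C4b was at 111, 236, 239 and 171 FPKM in NormMg-LFD mice and differed by 0.47 ± 0.24 (adjusted p = 0.124).

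In LowMg mice the differences between HFD and LFD were smaller for the C1q chains and the receptors. Of the 9 genes 5 were called higher, against 12.4% of all genes tested, and C2 was called lower, against 3.51%. C5ar1 rose by 1.1 ± 0.24 (adjusted p = 0.00478), C3ar1 by 1.2 ± 0.33 (adjusted p = 0.0174) and C1qb by 0.69 ± 0.22 (adjusted p = 0.0393) on the log2 scale. C1qa differed by 0.31 ± 0.18 (adjusted p = 0.256) and C1qc by 0.32 ± 0.22 (adjusted p = 0.352). Cfb rose by 0.88 ± 0.14 (adjusted p = 0.000869), with every LowMg-HFD mouse above every LowMg-LFD mouse, whose values were 81, 121, 87.7, 91.8 and 112 FPKM. C5ar1 also separated these groups, and the share of all genes that did so was not counted. C4b rose by 0.72 ± 0.22 (adjusted p = 0.0343), and C2 fell by 0.75 ± 0.23 (adjusted p = 0.0332). C1qb was called in 17, C2 in 18, C4b in 19 and C3ar1 in 22 of 28 alternatives, with adjusted p values of up to 0.123, 0.0971, 0.101 and 0.0782. C2 was not called without LowMg-LFD replicate 4, the library with epididymis markers (-0.59, adjusted p = 0.0824). The calls of Cfb and C5ar1 held under all 28 alternatives, whereas the number of calls went from 6 to 3 without LowMg-HFD replicate 1 or LowMg-LFD replicate 1, and to 2 without LowMg-HFD replicate 2. Over all genes tested the calls fell in the same fits, from 1329 to 866, 834 and 800.

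The interaction of Mg2+ and fat tests whether low Mg2+ acted alike on both fat levels. It was called for 3 of the 9 genes, all with a lower value, against 0.756% of all genes tested. The interaction was -1.65 ± 0.35 for C5ar1 (adjusted p = 0.0447), -1.34 ± 0.32 for C1qb (adjusted p = 0.0495) and -1.29 ± 0.32 for C1qc (adjusted p = 0.0495) on the log2 scale. C1qa (-1.05 ± 0.26, adjusted p = 0.0502) and C3ar1 (-1.91 ± 0.48, adjusted p = 0.0516) narrowly missed the threshold. That of Cfb was 0.00 ± 0.21 (adjusted p = 0.999). These calls are not firm, since 0 to 5 of the 9 genes were called when 1 mouse was left out, and 0 without NormMg-LFD replicate 3 or LowMg-LFD replicate 4. Over all genes tested the interaction was called for 104 genes, for 0 without the former library and for 6 without the latter, so that the loss was not particular to the 9 genes.

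The 3 chains of C1q did not keep a fixed ratio in all groups. The ratio of C1qb to C1qa FPKM was 0.838 ± 0.0427 in NormMg-LFD mice (SD, n = 4), 0.865 ± 0.061 in LowMg-LFD, 1.34 ± 0.115 in NormMg-HFD and 1.14 ± 0.166 in LowMg-HFD mice (SD, n = 5). The lowest HFD mouse, at 1.01, was above the highest LFD mouse, at 0.951. In LowMg-HFD mice the ratio was 1.34 and 1.3 in replicates 1 and 2 and 1.01 to 1.04 in the others. The ratio of C1qb to C1qc was 1.55 in both HFD groups, and 1.16 and 1.19 in the LFD groups. The ratio of C1qc to C1qa was 0.723 ± 0.0102 in NormMg-LFD, 0.728 ± 0.0297 in LowMg-LFD and 0.735 ± 0.0769 in LowMg-HFD mice, and 0.864 ± 0.0483 in NormMg-HFD mice. The values have no test, as the ratios were chosen after the levels had been seen.

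**Figure D3:**
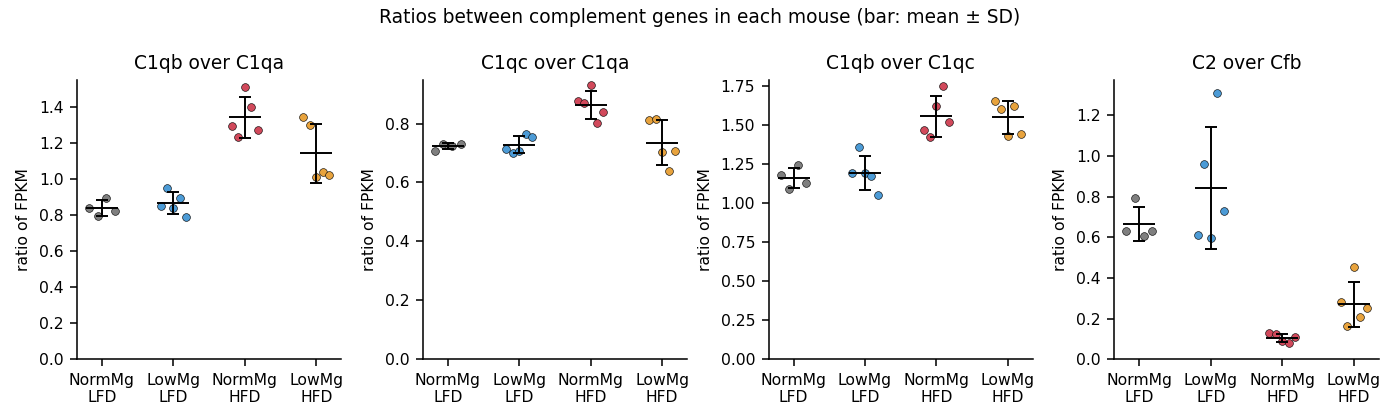
Ratios of FPKM between complement genes in each mouse, with the mean and SD of each diet group. The ratio of C1qb to C1qa is 0.791 to 0.951 in LFD mice and 1.01 to 1.51 in HFD mice, and the ratio of C2 to Cfb is lowest in NormMg-HFD mice, at 0.0809 to 0.128.

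Most of the macrophage markers moved with C1q and the receptors. Of 14 macrophage markers, all of which passed the filter, 11 were called lower in LowMg-HFD compared with NormMg-HFD mice, against 12.9% of all genes tested, and 0 were called higher. In NormMg mice 11 were called higher on HFD, against 24.6%, and 1, Cd163, was called lower (-0.56 ± 0.22, adjusted p = 0.0461), against 12.8%. Fcgr1 passed the filter only through NormMg-HFD, with means of 18.3 FPKM there and 2.9 to 6.24 FPKM in the other groups. Adgre1, which encodes F4/80, had a mean of 39.9 against 113 FPKM on HFD (log2 difference -1.62 ± 0.27, adjusted p = 0.00178), and Cd68 had 117 against 305 FPKM (-1.61 ± 0.34, adjusted p = 0.00404). Between the HFD groups Cd163, a scavenger receptor of resident macrophages, differed by 0.27 ± 0.2 (adjusted p = 0.388) and Mertk, an uptake receptor, by 0.13 ± 0.15 (adjusted p = 0.591). Aif1 differed by -0.1 ± 0.4 (adjusted p = 0.896). With fat in NormMg mice Aif1 differed by 0.52 ± 0.43 (adjusted p = 0.367) and Mertk by -0.33 ± 0.16 (adjusted p = 0.105). The summed FPKM of the list was 630 to 783 in NormMg-LFD, 491 to 930 in LowMg-LFD, 2527 to 3927 in NormMg-HFD and 869 to 2290 in LowMg-HFD mice, with no defining marker at 0. The highest LowMg-HFD values were in replicates 1 and 2, at 2290 and 1942, the same mice that were highest in C3ar1 and C5ar1. The part of macrophages in the result was not tested.

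Set against the mean log2 level of the macrophage list in the same mouse, the 9 complement genes stood as follows in the HFD groups. The level of C1qa was 1.89 ± 0.13 above the list in NormMg-HFD and 1.95 ± 0.23 above it in LowMg-HFD mice (SD, n = 5), and that of C1qb was 2.3 ± 0.13 and 2.13 ± 0.17 above it. The level of C3ar1 minus that of the list was -0.95 ± 0.15 in NormMg-HFD and -1.7 ± 0.52 in LowMg-HFD mice, and that of C5ar1 was -0.57 ± 0.14 and -1.09 ± 0.12. The level of C2 minus that of the list was -1.93 ± 0.5 in NormMg-HFD and 0.1 ± 0.47 in LowMg-HFD mice, and that of C4b was 1.56 ± 0.44 and 2.49 ± 0.33. For C3 it was 2.14 ± 0.38 and 2.6 ± 0.22, for Cfb 1.27 ± 0.48 and 2.04 ± 0.25, and for C1qc 1.67 ± 0.14 and 1.5 ± 0.23. The list itself was lower in LowMg-HFD mice (5.46 ± 0.42 against 6.42 ± 0.29).

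**Figure D4:**
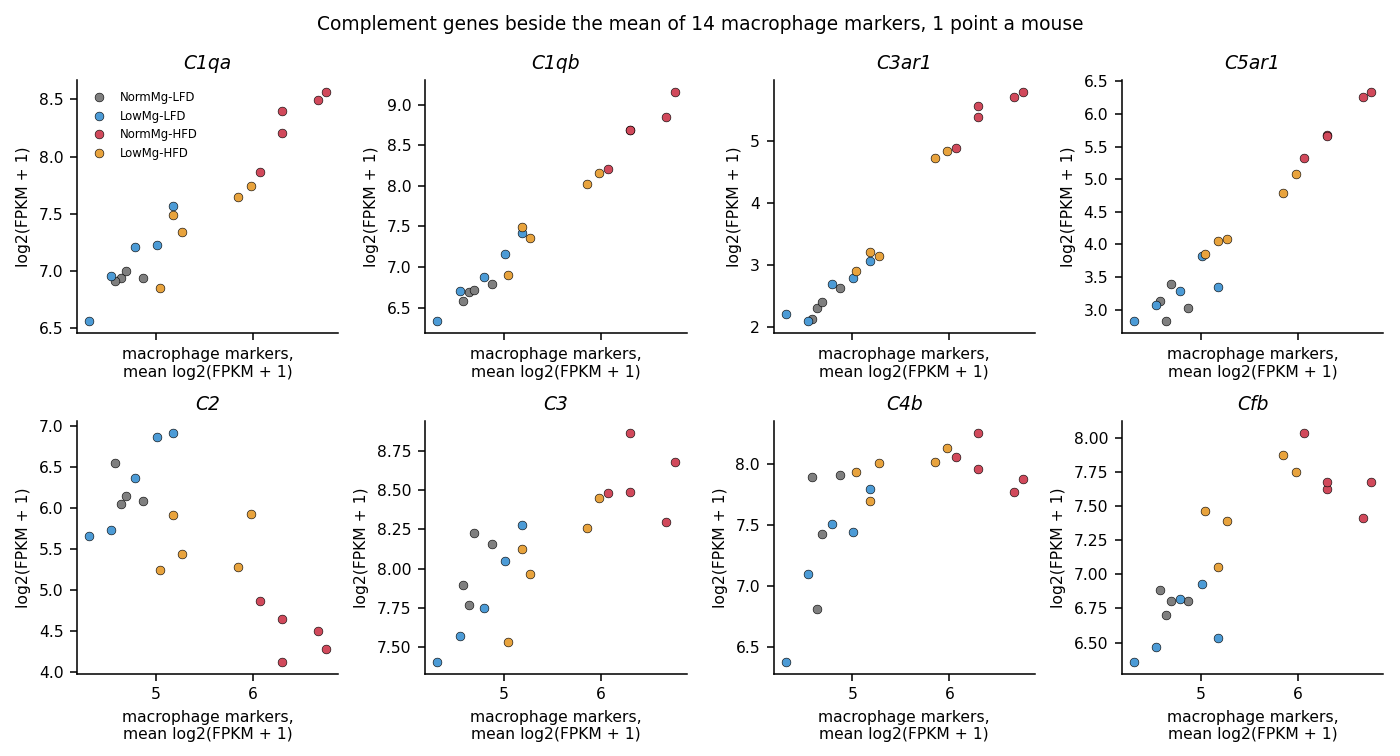
The log2(FPKM + 1) of 8 complement genes (vertical axes) against the mean log2(FPKM + 1) of 14 macrophage markers in the same mouse (horizontal axes), 1 point a mouse and coloured by diet group. C1qa, C1qb, C3ar1 and C5ar1 are highest in the mice with the highest marker mean (6.07 to 6.76 in NormMg-HFD), C2 is lowest in them, and C4b is spread over similar values on HFD.

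Markers of other cell types were also counted. Of 8 tested adipocyte markers, 5 were called higher in LowMg-HFD compared with NormMg-HFD mice, against 5.58% of all genes tested, and 0 lower. Of 9 stromal progenitor markers, 2 were called lower, against 12.9%, and of 7 endothelial markers 1 was called higher, against 5.58%, counts too small to set apart from these shares. The stromal markers summed to 1627 to 2160 FPKM in NormMg-HFD and 1026 to 1312 FPKM in LowMg-HFD mice, without overlap. The 2 called were Col3a1 and Col1a1. The endothelial sums, 270 to 369 and 309 to 411 FPKM, overlapped. With fat in NormMg mice 5 adipocyte markers were called lower, against 12.8% of all genes tested, and 1 higher, against 24.6%. In the same comparison 3 stromal progenitor markers were called higher, against 24.6%, and 1 endothelial marker lower, against 12.8%. These stromal and endothelial counts are again too small to set apart from the shares. The 8 neutrophil markers summed to 22.4 to 160 FPKM in NormMg-HFD mice, with the highest value in replicate 3, and to 10.8 to 23.6 FPKM in LowMg-HFD mice, with Ly6g at 0 in the latter. The only neutrophil marker tested, S100a8, passed the filter only through NormMg-HFD (mean 31.2 FPKM against 3.09 to 8.44 FPKM in the other groups), and it was called lower in the LowMg-HFD group (-1.83 ± 0.4, adjusted p = 0.00492) and higher with fat in NormMg mice (2.43 ± 0.43, adjusted p = 0.000188). The 9 lymphocyte markers summed to 7.39 to 44.3 and 12.6 to 26.2 FPKM, and none passed the filter. Mesothelial markers summed to 12.5 to 27.1 FPKM in NormMg-HFD and 21.9 to 109 FPKM in LowMg-HFD mice, with 44.2 to 123 FPKM in NormMg-LFD mice, where the only tested marker, Krt19, was higher than in NormMg-HFD mice (-1.86 ± 0.45 with fat, adjusted p = 0.00278), having not passed the filter through the latter group (mean 2.96 FPKM). Hepatocyte markers summed to 2.15 to 6.16 and 4.78 to 20.1 FPKM in the HFD groups, with Ttr at 0 in NormMg-HFD and Fgb at 0 in LowMg-HFD mice. Alb was called higher in the LowMg-HFD group (1.65 ± 0.37, adjusted p = 0.0055) and lower with fat in NormMg mice (-2.4 ± 0.4, adjusted p = 9.78e-05). It did not pass the filter through NormMg-HFD (mean 2.16 FPKM), and its means in the other groups were 9.21 to 14.7 FPKM. The part of these cells in the results was not tested.

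The genes whose pattern over the 19 mice was nearest to each complement gene were found by the root mean square difference of the mean-centred log2 levels. C1qa and C1qc were each the nearest to the other (0.13). For C1qb they were Fcer1g, Lyz2 and Vav1, all at 0.16. For C3ar1 they were Adgre1 (0.18), Nceh1 (0.19) and Lipa (0.19), and for C5ar1 they were Tyrobp (0.2), Lcp1 (0.22) and Nckap1l (0.22). The next nearest to C1qa were Sdcbp (0.15) and Grn (0.16), and to C1qc they were Rac2 and Ly86 (both 0.19). The genes nearest to C2 were Slc1a3 (0.25), Mettl7a1 (0.26) and Acss3 (0.29). For Cfb they were Sparc (0.17), Tnfrsf21 (0.19) and Lbh (0.2), for C3 they were Gsdmd (0.14), Zdhhc20 (0.16) and H2-T23 (0.17), and for C4b they were Serping1, Iqgap2 (both 0.22) and Gm8186 (0.25). The root mean square level of the gene itself was 0.59 for C1qa, 0.86 for C1qb, 0.71 for C1qc, 0.82 for C2, 0.39 for C3, 0.47 for C4b, 0.5 for Cfb, 1.34 for C3ar1 and 1.16 for C5ar1.

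A wider list of 50 complement genes was read beside the 9 genes. Of these, 47 were in the table and 23 passed the filter. In LowMg-HFD against NormMg-HFD mice 7 of the 23 were called lower, against 12.9% of all genes tested, and 1 was called higher, against 5.58%, the latter being no more than the background. The 6 receptor genes that were tested were all called lower. Itgam, Itgax and Itgb2, the chains of complement receptors 3 and 4, fell, with differences of -1.25 ± 0.25, -1.53 ± 0.4 and -1.33 ± 0.28 on the log2 scale (adjusted p = 0.00362, 0.0127 and 0.00419). Cd93, Calr and Lrp1, which have been described as binding partners of C1q, fell, with differences of -0.45 ± 0.14, -0.58 ± 0.11 and -0.57 ± 0.14 (adjusted p = 0.0302, 0.00255 and 0.00795). C1qbp, which encodes a mitochondrial protein also known to bind C1q, fell by 0.37 ± 0.08 (adjusted p = 0.00419).

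Cfd, the protease that cleaves factor B, was the 1 gene of the wider list that was called higher. It was at 378, 397, 287, 350 and 649 FPKM in NormMg-HFD mice and at 1652, 806, 3539, 1667 and 1963 FPKM in LowMg-HFD mice. LFD mice had 3501 to 8766 FPKM. The HFD groups did not overlap, and both lay below or near the bottom of the LFD mice, the highest LowMg-HFD mouse (3539) being just above the lowest LFD mouse. Cfd was higher by 2.12 ± 0.32 on the log2 scale in LowMg-HFD compared with NormMg-HFD mice (adjusted p = 0.00178). Cfd and C2 thus shared a direction that the receptors and the C1q chains did not.

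In NormMg mice 10 of the 23 genes of the wider list were called higher on HFD, against 24.6% of all genes tested, and 3 lower, against 12.8%, so that the number called lower was near the background. Cfd fell by 3.8 ± 0.34 (adjusted p = 1.36e-06). The terminal components C6 and C7, which take part in the membrane attack complex, fell, with differences of -1.0 ± 0.28 and -1.39 ± 0.51 (adjusted p = 0.00853 and 0.0393). The 6 receptor genes were all called higher, from 0.62 ± 0.15 for Lrp1 (adjusted p = 0.00252) to 3.91 ± 0.43 for Itgax (adjusted p = 2.12e-06). Itgax passed the filter only through the HFD groups, as it was at 1.59 to 3.96 FPKM in LFD mice. The genes called higher also held properdin (Cfp, 0.6 ± 0.21) and the regulators Serping1, the C1 inhibitor (0.51 ± 0.16), Cd59a (0.49 ± 0.17) and Cr1l (0.28 ± 0.1), with adjusted p values of 0.0297, 0.02, 0.0284 and 0.0441. These 4 and C7 lost their calls without NormMg-LFD replicate 3, the library with pancreas markers, when the count went from 13 to 8. Their differences without it were close to those with it (Serping1 0.45, Cd59a 0.48, Cr1l 0.27, Cfp 0.55 and C7 -1.27).

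**Figure D5:**
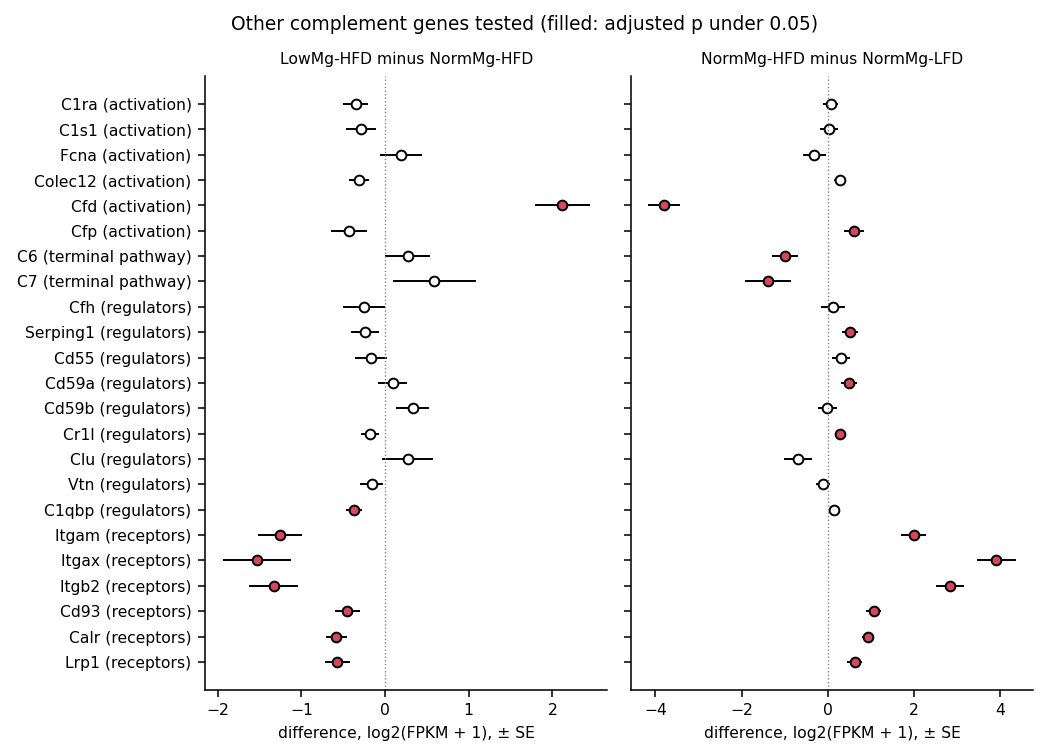
Differences on the log2(FPKM + 1) scale, with SE, for the 23 other complement genes that were tested, grouped by role in the labels. Filled points have an adjusted p under 0.05 in limma. The 6 receptor genes are lower in LowMg-HFD compared with NormMg-HFD mice and higher in NormMg-HFD than in NormMg-LFD mice, and Cfd has the opposite signs (2.12 and -3.8).

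On LFD 0 genes of the wider list were called with low Mg2+ by limma. In LowMg mice 6 of the 23 were called higher on HFD, against 12.4% of all genes tested, and 3 lower, against 3.51%. The initiating proteases C1ra and C1s1 were at mean levels of 36.4 to 46.5 and 101 to 122 FPKM in the 4 groups and were not called for Mg2+ on HFD (-0.35 ± 0.14, adjusted p = 0.0829, and -0.29 ± 0.17, adjusted p = 0.238). C5 itself (gene Hc) had a mean of at most 0.14 FPKM in any group and was listed at 0 in all LowMg-LFD mice. C1rb was listed at 0 in all NormMg-LFD, LowMg-LFD and NormMg-HFD mice, Mbl1 in all groups but NormMg-HFD, Colec10 in all NormMg-LFD and LowMg-HFD mice, C8a in all NormMg-LFD mice and C8b in all NormMg-HFD mice. In NormMg-HFD mice the 9 genes thus had mean levels between 21.8 (C2) and 431 FPKM (C1qb), whereas Hc, C8a, C8b and C9 had mean levels of at most 0.128 FPKM. The other terminal genes were higher there, C7 at 30.3, C6 at 14.7 and C8g at 2.56 FPKM.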

How the data were processed

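RNA of eWAT was sequenced as 50 bp single-end reads on an Illumina HiSeq. Per the labels and the study's methods, reads were mapped to GRCm38/mm10 with HISAT and Bowtie2 and quantified with RSEM v1.2.31, and the authors deposited FPKM per gene, along with a table of read numbers and the percent of reads mapped. No counts were used, so that no count test was run. Of 24238 gene rows 1 was left out as not numeric, and 26 symbols turned into dates were restored from gene identifiers. A pseudocount of 1 was added before log2. A gene entered the fit if at least 1 group had a mean above 8 FPKM and 4 or more mice above that value, and limma 3.58.1 was run in R 4.3.3 on all 4 groups with an intensity trend. P values were two-sided and adjusted by Benjamini-Hochberg over all genes tested. The depth per gene is unknown without counts, so that precision is given by the spread between mice. Positions are from GENCODE (GRCm38).

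The members and the lists of other complement genes and cell markers were chosen with earlier results of these data known. By rule the 9 members were named, with the 3 tested genes nearest to each. So were the listed genes at 0 and the genes of the wider list that passed the threshold for Mg2+ on HFD or fat in NormMg mice. Outside this rule C1ra, C1s1, C5ar2, C8g, C9, the genes overlapping C2 and Cfb, and some cell markers were also named. C1s, C4a, Mbl2 and Spint4 were not found by symbol and were not analysed here. The study left out a LowMg-HFD mouse for pancreatic tissue, and all 19 libraries were used here, with the labels as deposited. Columns of LowMgD mice were taken as LowMg-LFD. Alternatives were a pseudocount of 0.1, a filter at FPKM 1 or none, median centring, quantile normalisation, no trend, only the groups compared, a replicate block, each mouse left out, and 18 samples, without LowMg-HFD replicate 4, with log2(FPKM + 1) over 3. Replicate 4 was taken over from an earlier analysis of these data, and its pancreas markers, at 38.1 FPKM in sum, lay within the range of the other LowMg-HFD mice. This setting left 8808 genes to test, and the study's methods give the same number of transcripts after its filter. They do not number the mouse left out. The fit was tested on simulated data.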

Additional observations from a re-analysis of the deposited data

Results flagged for a closer look

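The interaction of Mg2+ and fat was called in limma, with a lower value, for 3 of the 9 genes, against 0.756% of all genes tested. The interaction was -1.34 on the log2 scale for C1qb, -1.29 for C1qc and -1.65 for C5ar1, each gene being lower with low Mg2+ on HFD and not called on LFD. The adjusted p values, 0.0495, 0.0495 and 0.0447, were close to the threshold, and over the alternatives they ran from 0.0167 to 0.132, 0.0191 to 0.132 and 0.0153 to 0.0981. The calls held in only 6, 6 and 10 of 27 alternatives. Of 36 groups of values, 1 per gene and diet, 0 had a single mouse past Dixon's 95% limit on the log2 scale. That limit cannot show a split such as that of C3ar1 in LowMg-HFD mice, at 27.7 and 25.4 FPKM against 6.44 to 8.23 FPKM.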

How the results depend on the processing

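The 6 calls among the 9 genes for Mg2+ on HFD held under all 28 alternatives, and 6 to 7 were called when 1 mouse was left out. On LFD 0 were called in every alternative. For fat in NormMg mice 7 to 8 were called, and 8 with a replicate block. For fat in LowMg mice the count of 6 went to 2 without a filter, 3 after quantile normalisation, 2 with only the groups compared and 2 to 6 when 1 mouse was left out. Over all genes, 1329 of 8336 were called as reported, 960 of 24237 without a filter, 1079 of 8336 after quantile normalisation, 725 of 8336 with only the groups compared and 800 to 1468 when 1 mouse was left out. The interaction count of 3 went to 0 with a pseudocount of 0.1, no filter, the replicate block or 18 samples, to 1 with a filter at FPKM 1 or no trend, to 5 with median centring or quantile normalisation, and to 0 to 5 when 1 mouse was left out. The whole table moved too, from 104 genes called to 24 with a pseudocount of 0.1, 2 without a filter, 0 with the replicate block, 35 in 18 samples, 48 with a filter at FPKM 1, 67 without a trend, 245 with median centring, 347 after quantile normalisation and 0 to 482 when 1 mouse was left out. Wider list counts were 7 to 9 for Mg2+ on HFD and 8 to 15 for fat in NormMg mice when 1 mouse was left out. The cause was not tested.

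Directions changed only for differences near 0. C4b on HFD was 0.03 with median centring, 0.08 after quantile normalisation and -0.08 to 0.04 when 1 mouse was left out. C2 on LFD was -0.05 to 0.26 when 1 mouse was left out. The Cfb interaction was 0.00 with a pseudocount of 0.1, 0.12 after quantile normalisation, 0.01 in 18 samples and -0.09 to 0.11 when 1 mouse was left out. Same-numbered mice correlated at -0.183 to 0.339 in their deviations. Mice of different numbers were not set beside them, so that this range cannot settle whether the numbers pair the mice. Apart from the interaction, the paired fit took the calls of C1qb and C2 for fat in LowMg mice, leaving 4.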
